A study of Mus musculus with 10 samples.

Results

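Respiratory complex I genes were followed here, the nuclear genes whose symbols begin with Ndufa, Ndufb, Ndufc, Ndufs or Ndufv. They were taken by the symbol given in the deposited expression table, with pseudogenes left out and the brightest feature kept for each symbol. This gave 45 genes of 30901 in all, from 49 features, and 4 of the genes had several features. By their roles they comprise 7 core subunits, 29 accessory subunits including the acyl carrier protein Ndufab1, 7 assembly factors, and 2 genes named Nduf that are not complex I subunits. The assembly factor Ndufaf8 is listed in the table under an older symbol that the choice does not take, and Ndufb1 was not analysed here.

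Complex I is the entry point of most electrons into the mitochondrial respiratory chain. Its matrix arm oxidises NADH in the N module and passes the electrons along iron-sulfur clusters to ubiquinone in the Q module, while its membrane arm pumps protons. The core subunits carry out this catalysis, accessory subunits surround and stabilise them, and assembly factors help to build the complex without remaining in it. The kidney, above all the proximal tubule, is rich in mitochondria because salt and solute reabsorption consumes ATP.

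Kidney RNA of 5 samples from mice given cyclosporin A (CsA), a calcineurin inhibitor used against transplant rejection, was compared with that of 5 samples from mice given its solvent, cremophore, called vehicle here. CsA was injected under the skin at 60 mg/kg per day, and kidneys were taken after 7 daily injections. Both groups were 10 to 12 weeks old, had a C57BL/6 background, ate a low sodium chow (0.05%) and belonged to a line in which Vhl can be deleted by 1 injection of doxycycline (3 mg) under Pax8-rtTA, a driver active in kidney tubules. Whether doxycycline was given to these mice is not stated, nor that each sample came from its own animal, so the p-values reflect the spread among the samples only.

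Array medians lay between 5.14 and 5.21 log2 units. CsA replicates 1 and 2 carried the X-inactivation transcript Xist at 9.21 and 9.15, against at most 4.82 on the other 8 arrays, which also carried Y-linked transcripts. Sex and treatment are therefore mixed in the full comparison. The value over the 8 male arrays is given beside it for each called complex I gene, but not for every other gene. All 15 proximal tubule markers were bright, the dimmest averaging 9.96, and 1 of them was called higher (0 in the male arrays). Their mean level was 11.08 to 11.65 in CsA kidneys, lowest in the 2 female samples, and 11.57 to 11.66 in vehicle kidneys. The mean of 10 macrophage markers was 7.04 to 7.41 in CsA and 6.50 to 6.73 in vehicle kidneys, with 7 called higher (7 in the male arrays). The mean of 8 distal convoluted tubule markers was 7.83 to 8.09 in CsA and 8.87 to 9.13 in vehicle kidneys, with 6 called lower (7 in the male arrays). Of the thick ascending limb (8), collecting duct (9), podocyte (6) and adipocyte (7) markers, 2, 2, 0 and 1 were called higher and none lower. The male arrays gave 0, 1, 0 and 2 called higher and none lower. The part of these cell types in the complex I values was not tested, and in whole kidney RNA fewer cells of a type cannot be told apart from less RNA per cell.

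CsA kidneys had less RNA for Ndufs1, a catalytic core subunit, and for the assembly factors Ndufaf1, Ndufaf4, Ndufaf6 and Ndufaf7, and more for the accessory subunit Ndufa7. The feature used for the accessory subunit Ndufa11 was also higher, but a copy of the gene may share its signal. These 7 of 45 genes (15.6%) were called at a limma adjusted p under 0.05, where 6.49% of all genes tested were called. Of the 45, 2 were called higher and 5 lower, where 2.95% of all genes were called higher and 3.54% lower. The 7 differences lay between 1.19-fold and 1.37-fold. The median difference, CsA minus vehicle, was -0.02 on the log2 scale over the 45 genes and 0.01 over all genes, and 17 of the 45 differences were positive. In the male arrays 2 of the 45 (4.44%) were called, Ndufa7 higher and Ndufs1 lower, where 3.17% of all genes were called, 1.53% higher and 1.64% lower. With each array centred on its median, 605 of 1930 called genes were higher (31.3%), against 911 of 2004 (45.5%) as deposited, and of the 45 genes 1 was then called higher and 6 lower. The sign of the difference was the same in the full and the male comparison for 43 of the 45.

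The spread between samples was small for most of these genes, and separation of the groups was more frequent than calls. CsA and vehicle arrays did not overlap in 14 of the 45 genes (31.1%), 6 above and 8 below vehicle, where 9.09% of all genes had no overlap, 4.04% above and 5.05% below. Among the male arrays 16 (35.6%) had none, where the share of all genes was 15.1%. At an unadjusted p under 0.05 stood 21 of the 45 (46.7%), against 20.8% of all genes, and in the male arrays 19 (42.2%), against 18.8%. The 45 genes were also bright: their median array signal was 8.13, a level that 10.5% of all genes exceeded, and 44 lay above the median gene. The part of signal level in these shares was not tested.

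**Figure D1:**
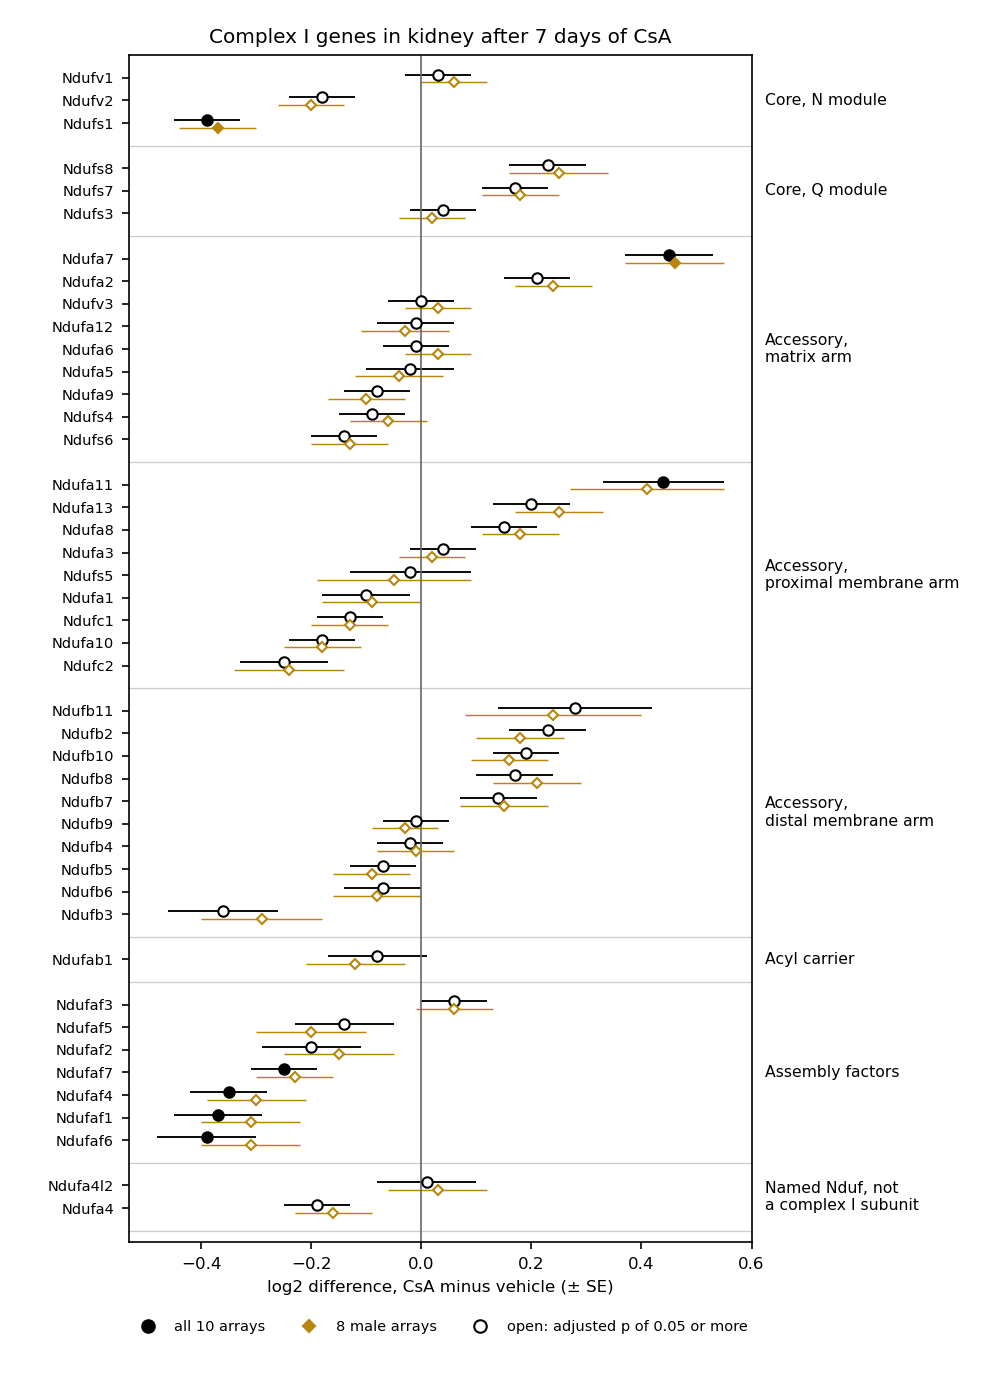
Difference between CsA and vehicle kidneys (log2, CsA minus vehicle) for 44 of the 45 genes, grouped by role. Black circles are all 10 arrays, gold diamonds the 8 male arrays, bars ± SE, and filled symbols called differences. The assembly factors lie mostly left of 0, with Ndufaf3 at 0.06 as the exception, while accessory subunits lie on both sides, led by Ndufa7 (0.45) and Ndufa11 (0.44).

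The core of the N module holds Ndufv1, which binds the flavin that accepts electrons from NADH, Ndufv2, an iron-sulfur subunit beside it, and Ndufs1, the large iron-sulfur subunit that leads electrons towards the Q module. Ndufs1 had log2 values of 9.33, 9.34, 9.44, 9.28 and 9.45 in the 5 CsA kidneys, against 9.81, 9.71, 9.77, 9.76 and 9.74 in the 5 vehicle kidneys. Every CsA value lay below every vehicle value. Ndufs1 was thus 1.31-fold lower in CsA kidneys, a log2 difference of -0.39 ± 0.06 (SE; limma adjusted p = 0.00363), and of -0.37 ± 0.07 in the male arrays (limma adjusted p = 0.0265). It passed the threshold in each of the 22 alternative fits of the full comparison, but among the male arrays, when each array was left out in turn, it passed only without vehicle replicate 5 (adjusted p = 0.0363) and otherwise gave adjusted p up to 0.0857, with values from -0.40 to -0.31.

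Ndufv2 was at 10.04, 9.88, 9.98, 9.86 and 9.92 in CsA kidneys and at 10.08, 10.09, 10.13, 10.12 and 10.17 in vehicle kidneys. These groups did not overlap, yet the difference of -0.18 ± 0.06 missed the threshold (limma adjusted p = 0.0969). Ndufv1 averaged 9.29 ± 0.05 under CsA and 9.26 ± 0.04 under vehicle (SD, n = 5 each), with overlapping groups and a difference of 0.03 ± 0.06 (SE). Of the 3 genes of the NADH-oxidising core, 1 fell and the others did not pass the test, where 3.54% of all genes were called lower. Ndufv2 was, however, called lower with trend and robust variance, without variance moderation and among genes above the median signal. Whether the 3 genes differed from each other was not tested.

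No core subunit of the Q module, where ubiquinone is reduced, passed the test. Ndufs8, an iron-sulfur subunit, was at 9.93, 9.88, 10.08, 9.80 and 9.96 in CsA kidneys and at 9.59, 9.74, 9.71, 9.63 and 9.81 in vehicle kidneys. Only the lowest CsA value and the highest vehicle value crossed, and the difference was 0.23 ± 0.07 (limma adjusted p = 0.0786). Ndufs8 was called higher after quantile normalisation, with trend and robust variance, and among genes above the 25th percentile or the median of signal. Ndufs7, which carries the last iron-sulfur cluster before ubiquinone, was at 10.35, 10.42, 10.41, 10.42 and 10.37 in CsA kidneys and at 10.10, 10.30, 10.22, 10.20 and 10.27 in vehicle kidneys. Its groups did not overlap, with a difference of 0.17 ± 0.06 (limma adjusted p = 0.113). Ndufs7 was called higher with trend and robust variance, without variance moderation and among genes above the median signal. Ndufs3, a structural core subunit, averaged 6.96 ± 0.05 under CsA and 6.92 ± 0.05 under vehicle (SD, n = 5 each). Its groups overlapped, with a difference of 0.04 ± 0.06 (SE).

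Of 9 accessory subunits of the matrix arm, 1 rose and none fell, with a median difference of -0.01. Of all genes tested, 2.95% were called higher and 3.54% lower. Ndufa7, a small subunit on the matrix arm, was at 7.85, 7.70, 7.84, 7.70 and 7.85 in CsA kidneys, against 7.40, 7.23, 7.36, 7.17 and 7.53 in vehicle kidneys. The only Ndufa7 feature is annotated with a non-coding RefSeq transcript, and which transcripts of the gene it reads was not tested. The groups did not overlap, and Ndufa7 was 1.37-fold higher in CsA kidneys (0.45 ± 0.08, limma adjusted p = 0.00743), with 0.46 ± 0.09 in the male arrays (limma adjusted p = 0.0336). It passed the threshold in each of the 22 alternatives of the full comparison. Among the male arrays, with each array left out in turn, it passed only without vehicle replicate 5 (adjusted p = 0.0215) and otherwise gave adjusted p up to 0.126, at 0.42 to 0.51. Ndufa2, which has a thioredoxin-like fold, was between 8.35 and 8.61 in CsA kidneys and between 8.24 and 8.28 in vehicle kidneys, without overlap, and differed by 0.21 ± 0.06 (limma adjusted p = 0.0729). Ndufs6, a zinc-binding subunit, was between 9.79 and 9.84 in CsA and between 9.85 and 10.07 in vehicle kidneys, a difference of -0.14 ± 0.06 (limma adjusted p = 0.196). The remaining 6 (Ndufa5, Ndufa6, Ndufa9, Ndufa12, Ndufs4 and Ndufv3) had overlapping groups. On the features used, their largest difference in size was that of Ndufs4, a subunit whose loss causes a Leigh-like disease in mice, at -0.09 ± 0.06. Ndufa6 differed by -0.01 ± 0.06 on the feature used. A second, dimmer Ndufa6 feature differed by 0.45 ± 0.23 (limma adjusted p = 0.346 over all features).

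Of 9 accessory subunits on the proximal side of the membrane arm, 1 was called higher and none lower, with a median of -0.02. The shares of all genes called were 2.95% higher and 3.54% lower. Under quantile normalisation the medians of the matrix arm and proximal accessory subunits were 0.03 and 0.02, so neither median had a settled sign. Ndufa11, which sits where complex I meets complex III in supercomplexes, was at 8.86, 8.72, 8.97, 8.42 and 8.77 in CsA kidneys and at 8.33, 8.37, 8.32, 8.01 and 8.52 in vehicle kidneys. CsA replicate 4 lay below vehicle replicate 5, so the groups overlapped. The feature used for Ndufa11 was 1.35-fold higher in CsA kidneys (0.44 ± 0.11, limma adjusted p = 0.0409). In the male arrays it differed by 0.41 ± 0.14 (limma adjusted p = 0.151). Leaving out single arrays ended the call in 8 of 10 cases, and it held only without CsA replicate 4 (adjusted p = 0.0172) or vehicle replicate 5 (adjusted p = 0.0337).

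The identity of the Ndufa11 signal is itself uncertain. The annotation holds a transcribed pseudogene, Ndufa11b, on chromosome 16, while Ndufa11 lies on chromosome 17. The feature used stands in the table among features of which 6 of 10 named ones belong to chromosome 16. A second Ndufa11 feature stands among features of which 19 of 19 belong to chromosome 17, and it averaged 5.55 ± 0.23 under CsA and 5.52 ± 0.25 under vehicle (SD, n = 5 each), a difference of 0.03 ± 0.14 (SE; limma adjusted p = 0.933 over all features). With both features averaged the difference was 0.24 (limma adjusted p = 0.206). Gene and copy cannot be told apart in these values.

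Other members with copies need the same caution. The only Ndufs5 feature stands among features of chromosome 16 (15 of 15), where the transcribed pseudogene Ndufs5-ps lies, although Ndufs5 itself lies on chromosome 4. Its values overlapped between groups (-0.02 ± 0.11). For Ndufs6, whose copy Ndufs6b lies on chromosome 7, 4 of 6 named neighbours of the used feature were on that chromosome, and the other feature differed by a like amount (-0.13 ± 0.06 against -0.14 ± 0.06). Ndufb4, Ndufa12 and Ndufab1 also have copies in the annotation, and their groups overlapped.

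Among the other proximal subunits, Ndufa10, a relative of nucleoside kinases, ranged from 10.75 to 10.84 in CsA kidneys and from 10.88 to 11.05 in vehicle kidneys. All CsA values were lower, with a difference of -0.18 ± 0.06 (limma adjusted p = 0.09). Ndufc2 differed by -0.25 ± 0.08 (limma adjusted p = 0.0931) and Ndufa13, also known as Grim19 for its part in cell death, by 0.20 ± 0.07 (limma adjusted p = 0.119), both with overlapping groups. A second, dimmer Ndufa13 feature differed by -0.07 ± 0.08 (limma adjusted p = 0.697 over all features). Ndufa1, Ndufa3, Ndufa8 and Ndufc1 differed by between -0.13 and 0.15, also with overlap. Ndufa1 and Ndufb11 are the 2 members on the X chromosome. The 2 female samples had Ndufa1 at 9.31 and 9.18, both within the range of the male CsA kidneys (9.15 to 9.47), against 9.23 to 9.45 in vehicle kidneys.

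No accessory subunit of the distal membrane arm passed the test, and the 10 genes were split evenly, 5 positive and 5 negative, with a median of 0.06. Ndufb3, a small membrane subunit, was at 6.91, 6.67, 6.99, 6.83 and 7.07 in CsA kidneys and at 7.41, 7.11, 7.21, 7.49 and 7.06 in vehicle kidneys. The top CsA value just exceeded the lowest vehicle value, and the difference of -0.36 ± 0.10 narrowly missed the threshold (limma adjusted p = 0.0583). Over the male arrays Ndufb3 differed by -0.29 ± 0.11 (limma adjusted p = 0.204). Ndufb2 (0.23 ± 0.07), Ndufb10 (0.19 ± 0.06) and Ndufb8 (0.17 ± 0.07) had every CsA value above every vehicle value without passing the test (limma adjusted p = 0.0779, 0.094 and 0.186). The remaining distal subunits overlapped. Ndufb9 had the highest mean signal of the 45 genes, 11.94 ± 0.05 under CsA and 11.95 ± 0.04 under vehicle (SD, n = 5 each). Ndufb11 had the lowest, 4.87 ± 0.23 in CsA and 4.59 ± 0.27 in vehicle kidneys, and the vehicle SD of 0.27 was the largest within-group spread among the 45. Signals of different features also depend on their probes, so they do not rank transcript amounts. Ndufab1, the mitochondrial acyl carrier protein, which also serves lipoic acid synthesis, differed by -0.08 ± 0.09 with overlapping groups.

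**Figure D2:**
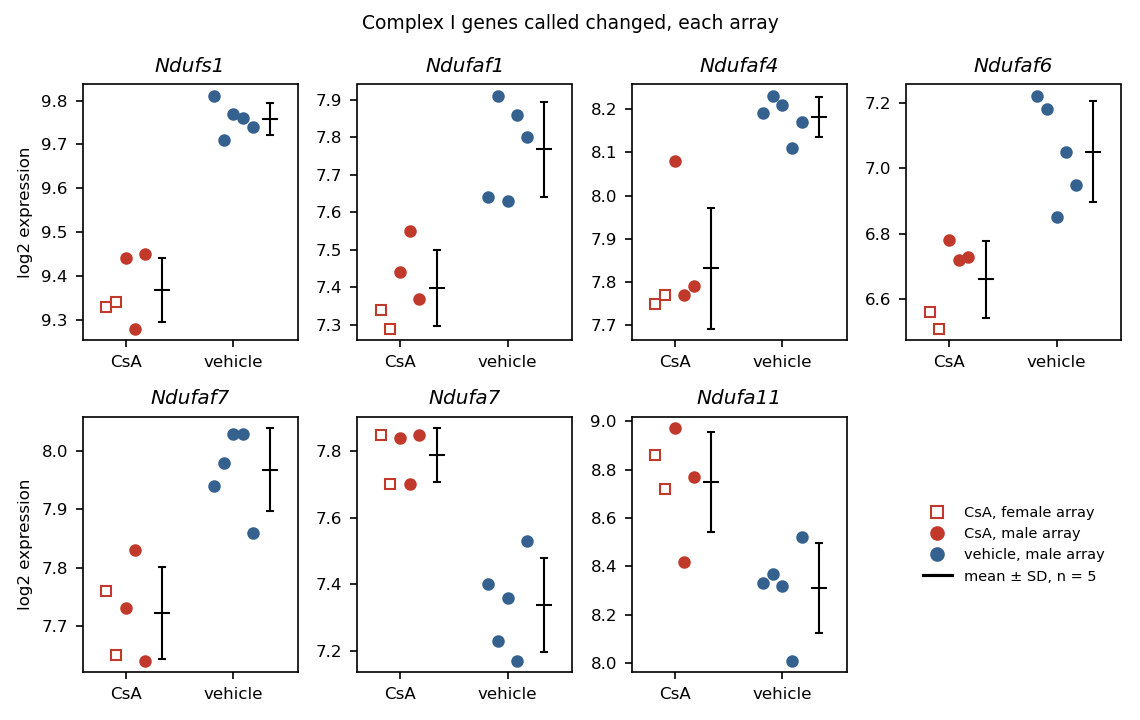
Log2 expression of the 7 called genes on each array, with CsA points left of vehicle points, open squares for the 2 female CsA samples and bars for mean ± SD. The groups are separate for 6 genes and overlap for Ndufa11, where CsA replicate 4 (8.42) lies below vehicle replicate 5 (8.52).

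The assembly factors differed mostly in 1 direction. Of 7, 4 fell and none rose, where 3.54% of all genes were called lower and 2.95% higher. Of the 7 differences 6 were negative, against 14908 of the 30901 differences over all genes, and the median was -0.25. The male arrays gave the same 6 negative signs and a median of -0.23. No assembly factor passed the threshold there, where 1.64% of all genes were called lower. Under quantile normalisation 3 of the 7 were called lower, and under centring on array medians or within gene length bins 4 were.

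Ndufaf1, a member of the assembly complex that helps to build the membrane arm, was at 7.34, 7.29, 7.44, 7.55 and 7.37 in CsA kidneys and at 7.64, 7.91, 7.63, 7.86 and 7.80 in vehicle kidneys. Its groups did not overlap, and it was 1.29-fold lower in CsA kidneys (-0.37 ± 0.08, limma adjusted p = 0.0185). In the male arrays Ndufaf1 differed by -0.31 ± 0.09 (limma adjusted p = 0.0986). Its call was lost without vehicle replicate 2 (adjusted p = 0.0512) and without vehicle replicate 4 (0.0505).

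Ndufaf4, which acts on early Q module intermediates together with Ndufaf3, was at 7.75, 7.77, 8.08, 7.77 and 7.79 in CsA kidneys and at 8.19, 8.23, 8.21, 8.11 and 8.17 in vehicle kidneys. Again no CsA value reached the vehicle range, although CsA replicate 3 came close to it. Ndufaf4 was 1.27-fold lower in CsA kidneys (-0.35 ± 0.07, limma adjusted p = 0.0171), and every fit without a single array kept the call. It missed the threshold in the male arrays (-0.30 ± 0.09, limma adjusted p = 0.0926). Its partner Ndufaf3 was the exception among the assembly factors, at 7.35 ± 0.08 under CsA and 7.30 ± 0.04 under vehicle (SD, n = 5 each), a difference of 0.06 ± 0.06 (SE).

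Ndufaf6, which in human cells is needed for the mitochondrially encoded subunit ND1, was at 6.56, 6.51, 6.78, 6.72 and 6.73 in CsA kidneys and at 7.22, 7.18, 6.85, 7.05 and 6.95 in vehicle kidneys. The groups did not overlap, and the gene was 1.31-fold lower in CsA kidneys (-0.39 ± 0.09, limma adjusted p = 0.0223). The 2 female samples had the lowest CsA values, and the male arrays gave -0.31 ± 0.09 (limma adjusted p = 0.116). Leaving out CsA replicate 2 ended the call (adjusted p = 0.0576), as did leaving out vehicle replicate 1, 2 or 4 (0.0565, 0.0615 or 0.0513).

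Ndufaf7, which in human cells acts as an arginine methyltransferase during complex I assembly, was at 7.76, 7.65, 7.73, 7.83 and 7.64 in CsA kidneys and at 7.94, 7.98, 8.03, 8.03 and 7.86 in vehicle kidneys. It was 1.19-fold lower in CsA kidneys without overlap (-0.25 ± 0.06, limma adjusted p = 0.0427), and -0.23 ± 0.07 in the male arrays (limma adjusted p = 0.131). Of the 10 fits that left out an array, those without CsA replicate 4 or vehicle replicate 5 kept its call (adjusted p = 0.0398 and 0.0374), and the other 8 lost it, with adjusted p up to 0.104. Ndufaf2, which works late on the N module, and Ndufaf5, which in human cells hydroxylates an arginine of NDUFS7, differed by -0.20 ± 0.09 and -0.14 ± 0.09 with overlapping groups. Ndufaf5 was among the 3 dimmest of the 45 genes, at 5.76 ± 0.14 under CsA and 5.91 ± 0.16 under vehicle (SD, n = 5 each).

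**Figure D3:**
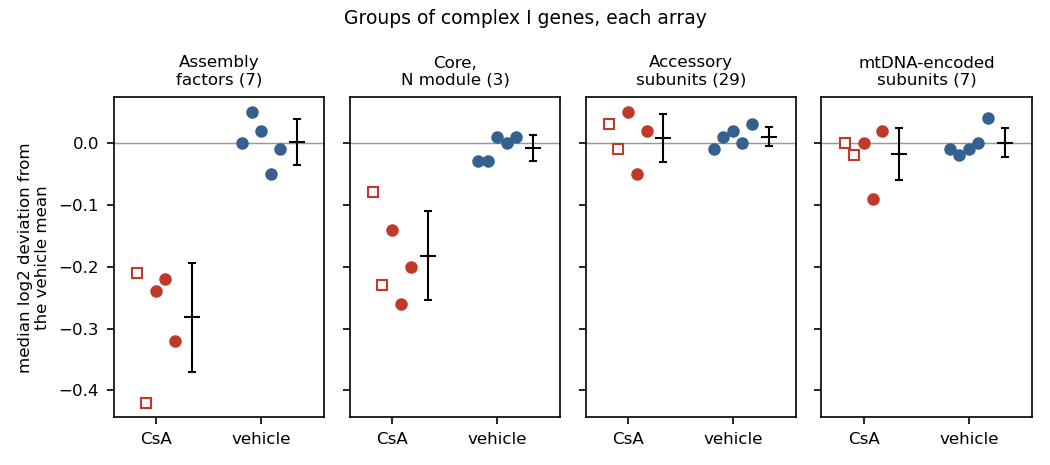
Median deviation from the vehicle means (log2) for the assembly factors, N module core, accessory subunits and mitochondrially encoded subunits on each of the 10 arrays. CsA lies left of vehicle, with open squares for the female samples and bars for mean ± SD. The Q module core is not drawn. The assembly factors lie between -0.42 and -0.21 on the CsA arrays and between -0.05 and 0.05 on the vehicle arrays, and the N module core between -0.26 and -0.08 against -0.03 and 0.01.

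Array by array, the median assembly factor stood at -0.21, -0.42, -0.24, -0.22 and -0.32 relative to the vehicle mean in the 5 CsA kidneys, against -0.05 to 0.05 in the vehicle kidneys. The female replicate 2 was lowest, and the 3 male CsA kidneys lay between -0.32 and -0.22. The median accessory subunit ranged from -0.05 to 0.05 in CsA and from -0.01 to 0.03 in vehicle kidneys. No single array therefore set the lower level of the assembly factors, while the median of the accessory subunits covers genes of both directions, 11 positive and 18 negative.

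Upstream sequences of some of the called genes are shown, with promoter motifs for nuclear respiratory factor 1 (NRF1) and ETS-type factors. These factors drive many nuclear genes of the respiratory chain. RefSeq (GRCm38.p6) windows were on hand for 39 of the 45 genes, but not for the called genes Ndufs1 and Ndufaf6. The 250 bases before the start of 2 fallen assembly factors and of the accessory subunits Ndufa7 and Ndufa11 are printed. They are chr4:24897833-24898082 (+ strand) for Ndufaf4, chr2:119662835-119663084 (- strand) for Ndufaf1, chr17:33824322-33824571 (+ strand) for Ndufa7 and chr17:56717512-56717761 (+ strand) for Ndufa11. Capitals mark matches on either strand to the NRF1 motif, GCGC and GCGC with any 2 bases between them, in Ndufaf4 and Ndufa11, and to the ETS motif CCGGAAG in Ndufaf1.
Ndufaf4: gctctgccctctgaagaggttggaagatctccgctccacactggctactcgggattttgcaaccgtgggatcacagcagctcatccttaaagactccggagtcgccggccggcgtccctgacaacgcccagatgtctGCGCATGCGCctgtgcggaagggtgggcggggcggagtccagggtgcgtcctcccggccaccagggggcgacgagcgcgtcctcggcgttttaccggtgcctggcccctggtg
Ndufaf1: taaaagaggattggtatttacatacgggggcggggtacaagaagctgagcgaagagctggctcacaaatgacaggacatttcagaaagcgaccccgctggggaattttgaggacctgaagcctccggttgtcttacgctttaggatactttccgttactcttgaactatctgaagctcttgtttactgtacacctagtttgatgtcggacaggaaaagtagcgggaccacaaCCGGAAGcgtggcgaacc
Ndufa7: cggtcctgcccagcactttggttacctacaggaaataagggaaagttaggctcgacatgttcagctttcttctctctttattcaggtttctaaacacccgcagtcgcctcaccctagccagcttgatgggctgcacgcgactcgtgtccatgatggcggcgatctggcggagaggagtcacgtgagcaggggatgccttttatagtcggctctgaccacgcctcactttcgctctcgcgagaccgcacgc
Ndufa11: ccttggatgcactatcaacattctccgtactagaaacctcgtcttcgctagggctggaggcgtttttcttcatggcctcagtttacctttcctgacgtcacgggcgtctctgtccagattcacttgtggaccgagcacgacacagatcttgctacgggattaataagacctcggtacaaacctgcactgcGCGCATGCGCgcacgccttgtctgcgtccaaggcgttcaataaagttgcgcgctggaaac

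The NRF1 motif occurred in 9 of the 39 windows (23.1%), against 5.64% of the windows of 27025 genes. It lay 113 bases before the start of Ndufaf4, and 60 bases before that of Ndufa11, whose own direction is uncertain. The ETS motif occurred in 4 of the 39 (10.3%), against 7.83% of all genes, and lay 18 bases before the start of Ndufaf1. The SP1 motif GGGCGG occurred in 18 (46.2%), against 35.4% of all genes. Neither the YY1 motif AAGATGGCG nor the estrogen-related receptor motif TCAAGGTCA occurred in the 39 windows, where 0.71% and 0.422% of all genes held them. The printed Ndufa7 window held no searched motif. Nor did the window of another Ndufa7 start or that of Ndufaf7, which are not printed. Motifs were searched on both strands and counted whether or not they overlapped another motif, and a match describes letters only.

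Ndufa4 and Ndufa4l2 carry the family name for historical reasons. Ndufa4 belongs to complex IV and was at 10.86, 10.93, 11.06, 10.88 and 10.94 in CsA kidneys and at 11.21, 11.15, 11.15, 11.05 and 11.06 in vehicle kidneys. The difference of -0.19 ± 0.06 did not pass the test (limma adjusted p = 0.107). Ndufa4l2, a paralogue induced by hypoxia-inducible factor, was among the dimmest of the 45 genes, at 5.45 ± 0.16 under CsA and 5.44 ± 0.13 under vehicle (SD, n = 5 each), a difference of 0.01 ± 0.09 (SE).

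Differences within the family varied with gene span, the distance on the chromosome from a gene's start to its end in RefSeq. Spearman's rho between span and difference was -0.48 across the 45 genes and -0.47 in the male arrays. It was -0.12 across 26890 genes with a span, and -0.27 across the 14483 of these above the median signal (-0.31 in the male arrays). These are correlations across genes of the same arrays and genes are not independent replicates, so they are given as a description. The 15 shortest genes, of 1850 to 6767 bases, had a median difference of 0.04, with 9 positive. The 15 in the middle, of 6872 to 10947 bases, had a median of -0.07, with 6 positive. The 15 longest, of 11212 to 106064 bases, had a median of -0.08, with 2 positive. Genes called lower numbered 3 in the middle class and 2 among the longest. Genes above the median signal with spans in the same ranges had medians of 0.06, 0.04 and -0.03, from shortest to longest. When each array was centred within 20 bins of gene length, the median of the 45 genes was -0.07, and 8 were called lower and 1 higher. Of all 30901 genes 1048 were then called lower and 843 higher, against 1093 and 911 as deposited. The call of Ndufa11 was lost under this centring (0.37, limma adjusted p = 0.0917) while the 4 assembly factors and Ndufs1 kept theirs.

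**Figure D4:**
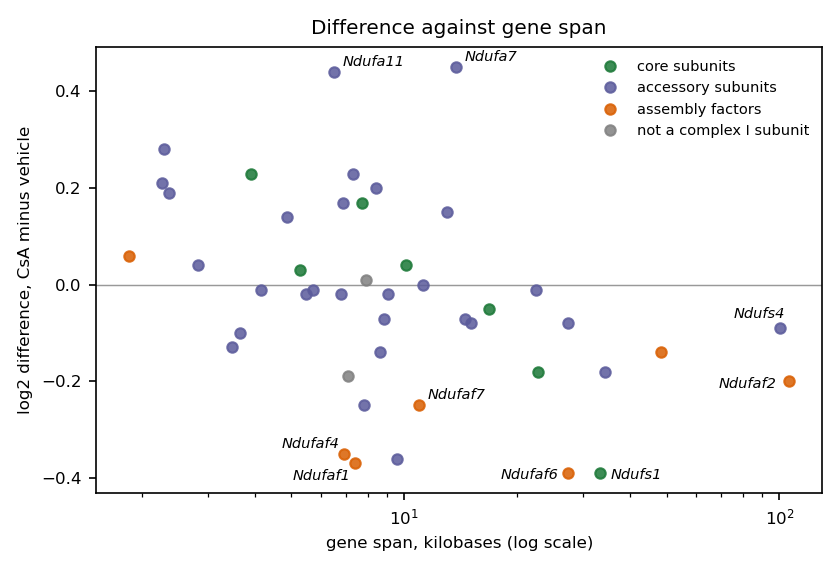
Difference between CsA and vehicle kidneys (log2, CsA minus vehicle) against gene span in kilobases on a log axis, 1 point per gene, coloured by role. Only 2 of the 15 longest genes lie above 0, against 6 of the 15 in the middle and 9 of the 15 shortest, and Ndufa7 (0.45) is the highest point.

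The 7 complex I subunits encoded by mitochondrial DNA, which form the proton-pumping core of the membrane arm, showed no called difference. Their median difference was -0.01 (0.03 within gene length bins), none had an unadjusted p under 0.05 in either comparison, and limma called none. ND6 had the smallest p, with 10.49 ± 0.19 under CsA and 10.36 ± 0.11 under vehicle (SD, n = 5 each), a difference of 0.13 ± 0.09 (SE). The others lay between 12.72 and 13.16 on average in CsA kidneys.

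Of 14 measured complex I assembly genes with other names, 3 fell and none rose, with a median of -0.14. Over all genes 3.54% were called lower and 2.95% higher. Aifm1, which supports protein import into mitochondria, was at 8.42, 8.42, 8.65, 8.63 and 8.59 in CsA kidneys and at 9.04, 9.07, 8.92, 9.06 and 8.93 in vehicle kidneys. Without overlap, Aifm1 differed by -0.46 ± 0.07 (limma adjusted p = 0.00359), and it passed in the male arrays too (-0.38, limma adjusted p = 0.0227, held in 3 of 8 fits without a single male array). Acad9, a partner of Ndufaf1 in the assembly complex, was at 7.70, 7.57, 7.83, 7.85 and 7.77 in CsA kidneys and at 8.06, 8.15, 8.31, 8.12 and 8.05 in vehicle kidneys. Its groups were separate as well, with a difference of -0.39 ± 0.08 (limma adjusted p = 0.0111), but in the male arrays it missed the threshold (-0.32 ± 0.08, limma adjusted p = 0.0586). Nubpl, which delivers iron-sulfur clusters to complex I, differed by -0.46 ± 0.11 (limma adjusted p = 0.0238), a call lost without CsA replicate 2 and without vehicle replicates 2 and 3, with adjusted p up to 0.0641. Nubpl differed by -0.33 ± 0.10 in the male arrays (limma adjusted p = 0.107).

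The enzymes that make NADH in the matrix, the substrate of complex I, were measured by 13 genes, of which 6 fell and none rose, with a median of -0.22. In the male arrays 4 of the 13 fell. Over all genes 3.54% were called lower in the full comparison and 1.64% in the male arrays. The pyruvate dehydrogenase subunit Pdhb was at 9.43, 9.52, 9.55, 9.46 and 9.55 in CsA kidneys and at 10.05, 10.01, 9.95, 10.02 and 10.03 in vehicle kidneys. Its groups were far apart compared with their spread, with a difference of -0.51 ± 0.06 (limma adjusted p = 0.000628). The shared dehydrogenase subunit Dld (-0.54 ± 0.07, limma adjusted p = 0.0016) and the catalytic subunit Pdha1 (-0.54 ± 0.09, limma adjusted p = 0.00397) fell by similar amounts. The female samples had the lowest CsA values of Pdha1, 9.22 and 9.36. In the male arrays Pdha1 differed by -0.43 ± 0.08 (limma adjusted p = 0.0209), a call held in 4 of 8 fits without a single male array. Pdhb and Dld passed the threshold in every alternative fit, including each fit that left out a male array.

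Called genes of the other respiratory complexes lay in both directions, where 2.95% of all genes were called higher and 3.54% lower. Of 8 complex II genes, 1 fell, the membrane anchor Sdhc (-0.38 ± 0.09, limma adjusted p = 0.0269). Of 9 complex III genes, 3 fell, Uqcrc2 (-0.25 ± 0.06, limma adjusted p = 0.0206), Uqcrb (-0.30 ± 0.07, 0.0226) and Uqcrfs1 (-0.26 ± 0.06, 0.0304), while the median of the list was 0.07. In complex IV 2 of 11 genes rose, Cox7b (0.53 ± 0.10, limma adjusted p = 0.00832) and Cox4i1 (0.31 ± 0.06, 0.0103), with a median of 0.16. Under quantile normalisation 4 of the 11 were called higher, and within gene length bins 2 higher and 1 lower. That lower gene was Ndufa4, which is counted both in this list and among the 45 genes. In ATP synthase 2 of 15 rose, Atp5g2 (0.33 ± 0.06, limma adjusted p = 0.00772) and Atp5k (0.34 ± 0.08, 0.0343), with a median of -0.03. Quantile normalisation gave 4 called higher there and centring on array medians 1. Of 16 regulators of mitochondrial biogenesis 1 fell, the mitochondrial DNA packaging factor Tfam (-0.31 ± 0.08, limma adjusted p = 0.0469), a call that held in 1 of 10 fits with an array left out, the one without CsA replicate 5, with adjusted p up to 0.107. In the male arrays no gene of complexes II and III and no biogenesis regulator was called, 2 of complex IV were and 1 of ATP synthase. Of all genes, 1.53% were called higher there and 1.64% lower. With single arrays left out of the full comparison, the calls of Cox7b, Cox4i1 and Atp5g2 held in all 10 fits. That of Uqcrc2 was lost without vehicle replicates 2 and 3 (adjusted p up to 0.0591), and that of Uqcrb without CsA replicate 4 and vehicle replicates 1, 2 and 3 (up to 0.0599). Sdhc held its call only without CsA replicates 4 and 5 and vehicle replicate 5 (otherwise up to 0.0658), Uqcrfs1 only without CsA replicate 5 and vehicle replicate 5 (up to 0.0804), and Atp5k only without CsA replicate 4 and vehicle replicates 3 and 5 (up to 0.0824). Among the male arrays Cox7b held in 7 of 8 such fits, all but that without CsA replicate 3 (adjusted p = 0.0524), and Cox4i1 and Atp5g2 in 0 of 8 (up to 0.153 and 0.118).

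**Figure D5:**
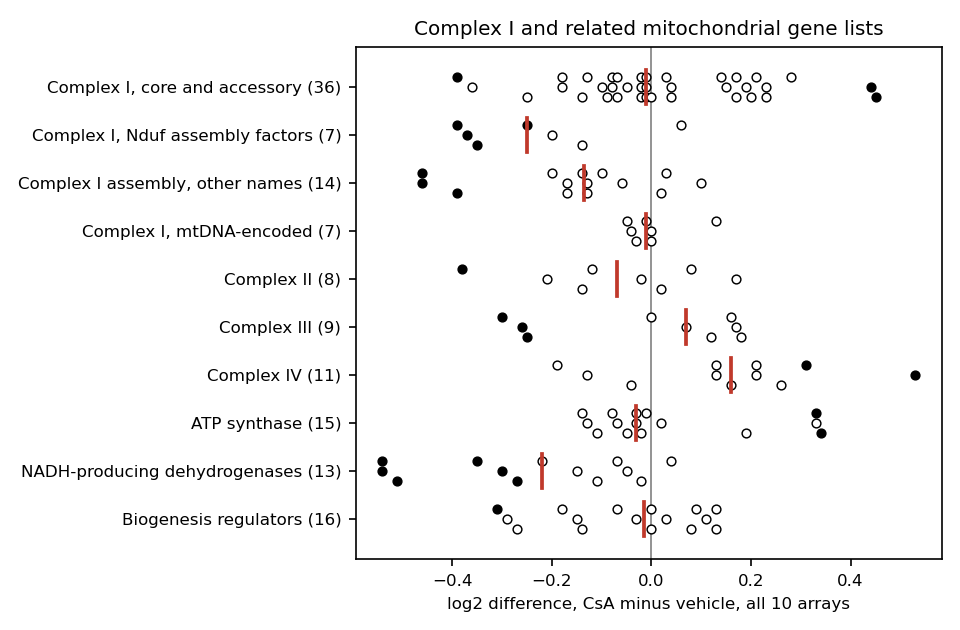
Difference between CsA and vehicle kidneys (log2, CsA minus vehicle) for each gene of complex I and the mitochondrial lists, 1 point per gene, filled where called, with a bar at the list's median. The medians run from -0.22 for the NADH-producing dehydrogenases and -0.14 for the other assembly genes to 0.16 for complex IV, with the mitochondrially encoded subunits at -0.01.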

How the data were processed

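Kidney RNA of 10 samples was measured on Affymetrix Mouse Gene ST 2.0 arrays, 200 ng of total RNA each, per the labels' protocols. The authors deposited log2 expression values, and RMA and Partek 6.4 are named per the submitters' processing notes, without order or settings. The genome build was not given in the sources used here. Both deposited tables were identical (41345 features), so no comparison between them was run. Symbols were updated through RefSeq (GRCm38.p6), by accession for 21749 features, and 8874 had no single symbol. Each gene was its brightest feature, with no filter. The groups were compared with limma 3.58.1 (R 4.3.3; lmFit, then eBayes, 2-sided) and p-values adjusted by Benjamini-Hochberg over 30901 genes, with calls at an adjusted p under 0.05. The procedure was tested on simulated data with independent noise for each gene and no sex difference. That test therefore does not address the mixing of sex and treatment. The number of arrays limits the precision.

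Members and lists were chosen with earlier results of these data known. Named were called members, core subunits, the 3 brightest and 3 dimmest, Ndufa4, Ndufa4l2 and up to 3 called genes per mitochondrial list, and members named beyond these were chosen after their values were seen. Marker lists are given as counts. Of the genes this rule selects, 1 is not reported here, although it enters every count. Gene span replaced the planned transcript length, which was not on hand. Alternatives were male arrays, a female term, filters, scalings, variance models, feature choices and leaving out arrays. Centring within gene length bins in the male arrays was added after seeing the data.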

Additional observations from a re-analysis of the deposited data

Results flagged for a closer look

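Each of the 45 genes was checked in both groups for an array far from the other 4, 90 checks in all, and 4 arrays stood out where chance gives about 1 in 20. Ndufaf4 in CsA replicate 3 was at 8.08, against 7.75 to 7.79 in the other CsA kidneys, and closer to the vehicle values. Ndufv3 in CsA replicate 2 was at 7.93, against 8.09 to 8.10. Ndufb6 in CsA replicate 4 was at 8.49, against 8.69 to 8.76. Ndufb11 in vehicle replicate 3 was at 4.12, against 4.66 to 4.74, on a dim feature. Of these 4 genes only Ndufaf4 was called, and its call held without CsA replicate 3.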

How the results depend on the processing

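Over all 10 arrays 2 of the 45 genes were called higher and 5 lower. The count higher was 1 in the male arrays, with a term for the female arrays, with array medians centred, within gene length bins, with a gene's features averaged and with every feature tested. It was 4 after quantile normalisation again and without variance moderation, 5 and 8 when only genes above the 25th percentile, or above the median, of signal were tested, and 6 with trend and robust variance. The count lower was 1 in the male arrays and with the female term, 10 above the median level and with trend and robust variance, and 8 within length bins. Leaving out single arrays gave 1 to 2 higher and 2 to 6 lower. In the male arrays, with 1 each, leaving out arrays gave 0 to 1 of either, and length bins left 0 higher. Of all 30901 genes 2004 were called, 980 in the male arrays, 1009 with the female term, 1891 within length bins and 2765 with trend and robust variance. Leaving out arrays gave 1134 to 1927, and 161 to 1041 among the male arrays. Above the 25th percentile 2632 of 23175 genes tested were called, and above the median level 3284 of 15450. The counts of the 45 genes under these filters therefore stand beside a larger share of called genes than in the full comparison. No called gene among the 45, and no called mitochondrial gene named above, changed sign under these alternatives. Other called genes were not checked for this. Filters test fewer genes and the male comparison uses fewer samples, and the other causes were not tested. No paired analysis was possible because the labels carry no replicate numbers shared by the groups.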
